A study of Mus musculus with 8 samples.

Results

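The genes described here are the fibroblast growth factor (FGF) ligand genes Fgf1, Fgf2, Fgf7, Fgf10 and Fgf18 and the receptor genes Fgfr1, Fgfr2, Fgfr3, Fgfr4 and Fgfrl1. They were taken by name from a table of raw counts, and they are 10 of its 27179 genes. The counts come from bulk RNA-seq of cells sorted from lungs that carry tumors with an Eml4-Alk gene fusion, with 4 libraries each from the fractions called QZ1-hi and QZ1-lo. QZ1 is a quenched probe whose Cy5 fluorescence appears once proteases cut its linker, and the sort asks which cells carry the cleaved probe. All 8 libraries come from female C57BL/6J mice, 11 to 12 weeks after adenovirus delivered Cas9 and guide RNAs for the fusion into the airways. Their age is taken as 18 to 22 weeks, which the paper states for the age-matched healthy controls. Lungs were taken 2 h after an intravenous dose of 4.5 nmol of QZ1-(PEG2K). Both populations therefore carry the tumor induction and the probe, and there was no library from healthy lung or without probe among those analysed here. Live cells gated as negative for CD45 and CD11b were split by QZ1 signal, at least 100000 cells per population, so each library is a mixture of lung and tumor cell types and not a pure type.

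FGFs are mostly secreted proteins that bind receptor tyrosine kinases at the cell surface, with chains of heparan sulfate as a required partner for the secreted, locally acting members. In lung, Fgf7 and Fgf10 are classically made by mesenchymal cells and act on a splice form of Fgfr2 in epithelial cells, and Fgf10 drives branching of the developing airways. Fgf1 and Fgf2 lack a classical secretion signal, bind several receptors and are known as mitogens of endothelial and mesenchymal cells, while Fgf18 takes part in lung and skeletal development. Fgfr1 is prominent in mesenchyme, and Fgfrl1 binds FGFs but lacks the intracellular kinase. The counts are per gene, so the splice forms that decide which ligand a receptor binds were not separated.

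Of the 10 genes, 9 passed the filter on low counts, and 5 of these were higher in QZ1-hi by edgeR's quasi-likelihood test with adjusted p under 0.05 over all genes tested. They were the ligands Fgf1, Fgf2, Fgf7 and Fgf10 and the receptor Fgfr1. None of the 9 was lower, and all 9 fitted log2 fold changes were above 0. The count of 5 was 3 without QZ1-hi replicate 1, 2 or 3 and without QZ1-lo replicate 1, 2 or 4, where Fgfr1 and Fgf2 were called each time. With at least 10 counts required in every library, the count was 2 of 5 tested members, Fgf1 and Fgfr1. Fgf2, Fgf7, Fgf10 and Fgf18 were not tested there, since each had QZ1-lo libraries under 10 counts. These 4 ligands passed the main filter through their QZ1-hi counts. Across all 15583 genes tested, 9.88% were higher and 8.21% were lower in QZ1-hi. Fgf2, Fgf7 and Fgfr1 had every QZ1-hi library above every QZ1-lo library, a pattern that 11.9% of all genes tested showed, while 10.7% showed the reverse. The median log2 fold change was 1.23 over the 9 tested members and 0.02 over all genes tested. It was 2.63 over the 5 ligands and 0.37 over the 4 tested receptors. The members were chosen with earlier results of these data known, which limits what these contrasts with all genes can show. Levels below are CPM (the counts of a gene scaled to a fixed library total) after TMM scaling, which adjusts library sizes to the bulk of genes, and a fold change always compares QZ1-hi with QZ1-lo.

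**Figure D1:**
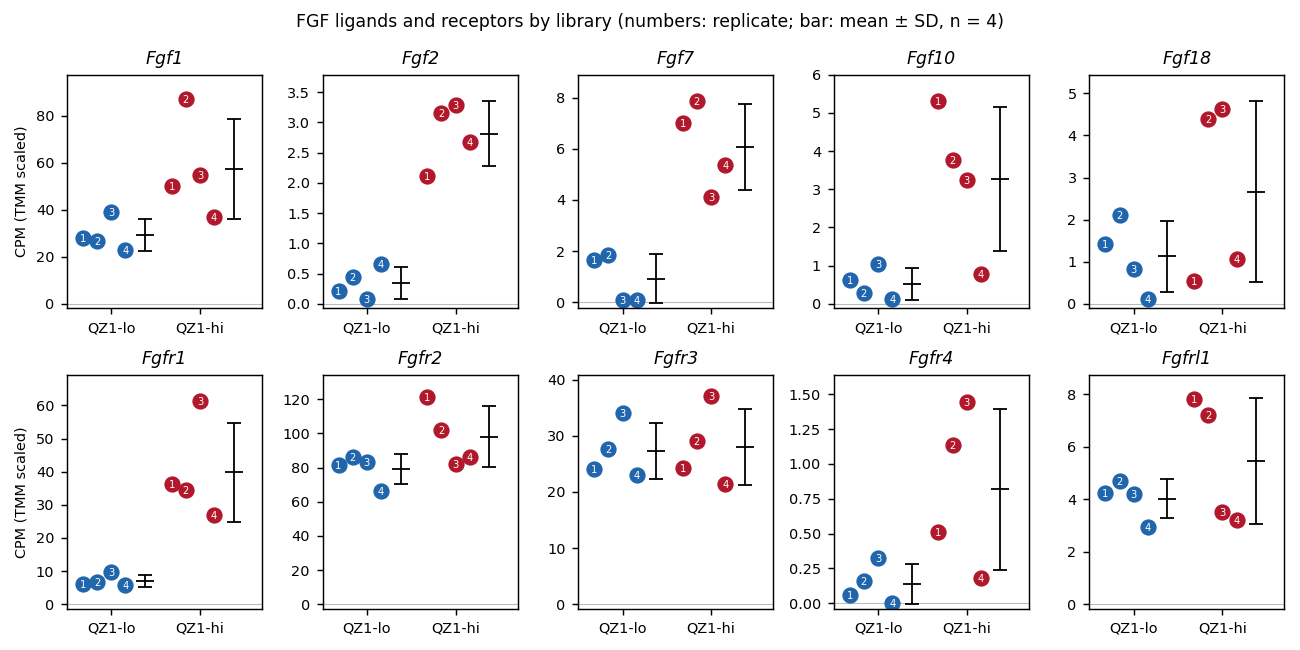
Levels of the 10 FGF genes in each library, in TMM-scaled CPM on a linear axis that differs between panels. Numbered points are libraries (blue, QZ1-lo; red, QZ1-hi) and the bars beside them are mean ± SD over 4 libraries. The 2 populations are separate for Fgf2, Fgf7 and Fgfr1 and overlap in the other panels.

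Total counts per library ranged from 18380918 to 26847938, and 3 counts, the floor used here for a detected gene, correspond to 0.0894 to 0.179 CPM. Mitochondrial and ribosomal RNA genes took 43.7 to 65.6% of counts in QZ1-hi and 34.0 to 53.2% in QZ1-lo. The populations differed in the markers of cell types. All 6 endothelial markers examined (Cdh5, Pecam1, Vwf, Eng, Kdr and Tek) were higher in QZ1-hi, and their summed level ran from 849.9 to 1990 CPM there and from 66.8 to 255.4 CPM in QZ1-lo. Of 6 pericyte markers, 4 were higher in QZ1-hi, with sums of 186.3 to 324.1 CPM against 19.9 to 59.2 CPM. Of 4 matrix fibroblast markers, 3 were higher, with sums of 1541 to 2588 CPM against 546.4 to 989.2 CPM. Fn1 was the largest part of these sums, at means of 1259 and 601.9 CPM in QZ1-hi and QZ1-lo. Col1a1 was at 550.0 and 57.4 CPM and Col1a2 at 350.3 and 30.0 CPM. The epithelial markers Cdh1 and Epcam were both lower, with sums of 211.6 to 345.6 CPM against 547.9 to 742.4 CPM, and no marker of any of these lists was at 0 in all libraries. Despite the gate, the gene of CD45, Ptprc, was at 71.4 to 221.8 CPM and that of CD11b, Itgam, at 29.4 to 54.8 CPM over the 8 libraries. By edgeR none of the 5 immune markers tested was called, with 0 of 5 at an unadjusted p under 0.05, and the sums of all 6 were 230.6 to 509.5 CPM in QZ1-hi and 214.4 to 385.8 CPM in QZ1-lo. None of 4 erythroid markers was called either, though 3 of 4 were lower in QZ1-hi at an unadjusted p under 0.05, with sums of 130.5 to 1006 CPM and 281.9 to 3097 CPM. In such mixtures a gene that is higher because more of the cells express it and one that is higher because each cell holds more of its RNA cannot be told apart, and the part of these marker differences in the FGF values was not tested.

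Fgf7 and Fgf10, which are classed together as mesenchymal ligands of Fgfr2, were both higher in QZ1-hi, and the 250 bases before their transcript starts are shown for this pair of called ligands. The sequences are from RefSeq on GRCm38.p6, at chr2:126034408-126034657 on the plus strand for Fgf7 and chr13:118714449-118714698 on the plus strand for Fgf10, read 5′ to 3′, and capitals mark a GC box (GGGCGG on either strand).
Fgf7: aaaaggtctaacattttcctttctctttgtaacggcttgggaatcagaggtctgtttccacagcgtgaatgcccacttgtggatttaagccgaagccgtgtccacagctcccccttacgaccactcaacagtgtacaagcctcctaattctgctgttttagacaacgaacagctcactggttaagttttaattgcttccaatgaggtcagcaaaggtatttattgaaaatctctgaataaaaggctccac
Fgf10: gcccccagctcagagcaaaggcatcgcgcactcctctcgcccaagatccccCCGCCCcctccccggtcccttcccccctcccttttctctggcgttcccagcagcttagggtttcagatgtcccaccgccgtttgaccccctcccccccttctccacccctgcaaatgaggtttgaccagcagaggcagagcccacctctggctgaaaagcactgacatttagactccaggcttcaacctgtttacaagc
The Fgf10 window holds 1 GC box, on the minus strand, and the Fgf7 window holds none. A GC box occurs in 32.7% of 32851 RefSeq windows of the same length. Neither window holds the TATA box TATAAA, found in 12.4% of all windows, or the TEAD motif GGAATG, found in 12.6%. The Fgf7 window has 6 CpG dinucleotides and 43.6% G or C bases, and the Fgf10 window has 8 and 61.2%, beside a median of 6 CpG over all windows. The pair thus differed in base composition while both genes were higher in QZ1-hi. The window of Fgf2, the other ligand with a log2 fold change above 2.5, has 20 CpG, 62.4% G or C bases and 1 GC box, and it was not printed because the gene annotation places some of it in the transcript. RefSeq windows were found for 8 of the 10 members, not for Fgf1 and Fgfr1.

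Fgf7, keratinocyte growth factor (Entrez 14178, chromosome 2, 126034658 to 126091185, plus strand, GRCm38.p6), was measured at 6.99, 7.85, 4.11 and 5.36 CPM in QZ1-hi replicates 1 to 4 and at 1.64, 1.83, 0.0724 and 0.0819 CPM in QZ1-lo replicates 1 to 4. The lowest QZ1-hi library lay above the highest QZ1-lo library, and the QZ1-lo libraries were themselves uneven, with 55 and 45 counts in replicates 1 and 2 and 2 counts each in replicates 3 and 4, below the floor. Means were 6.08 ± 1.67 CPM and 0.906 ± 0.961 CPM (SD, n = 4 each), and the log2 fold change was 2.73 (SE 0.80, edgeR adjusted p = 0.0367). The call was lost when any 1 QZ1-hi library was left out, with adjusted p from 0.0556 to 0.0857, and under robust shrinkage of the variances (adjusted p = 0.0546). The fold change stayed between 2.35 and 3.29 on the log2 scale with each of the 8 libraries left out in turn.

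Fgf10 (Entrez 14165, chromosome 13, 118714699 to 118792573, plus strand, GRCm38.p6) was measured at 5.30, 3.75, 3.24 and 0.775 CPM in QZ1-hi and at 0.626, 0.285, 1.05 and 0.123 CPM in QZ1-lo. QZ1-hi replicate 4, with 13 counts, lay below QZ1-lo replicate 3, with 29, so the populations overlapped in that 1 library. Means were 3.27 ± 1.88 CPM and 0.521 ± 0.410 CPM (n = 4 each), and the log2 fold change was 2.63 (SE 0.73, edgeR adjusted p = 0.0272). The call held in 2 of the 8 fits that left out a library, those without QZ1-hi replicate 4 and without QZ1-lo replicate 3. In the other 6, adjusted p lay between 0.0518 and 0.0879 while the log2 fold change over all 8 stayed between 2.30 and 3.20.

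The balance between these ligands varied between libraries. The log2 ratio of Fgf7 to Fgf10 counts in a library was 1.14 (SD 1.12) in QZ1-hi and -0.02 (SD 2.68) in QZ1-lo, and it ran from -3.56 to 2.60 within QZ1-lo, a span that covers every QZ1-hi library but replicate 4 at 2.74. QZ1-lo replicate 3 had the most Fgf10 of its population and 2 counts of Fgf7. The difference between the population means of this ratio was 1.16 with all libraries and -0.03 without that library. Among others, that library also had the highest QZ1-lo sums of endothelial (255.4 CPM), pericyte (59.2 CPM), ciliated (184.7 CPM) and alveolar type 2 markers (5876 CPM). Its matrix fibroblast sum, 604.8 CPM, was below those of QZ1-lo replicates 1 and 2. Fn1 made up 456.7 CPM of that sum and was lowest of QZ1-lo in that library. The other matrix fibroblast markers, Col1a1 (91.6 CPM), Col1a2 (55.7 CPM) and Tcf21 (0.832 CPM), were each highest of QZ1-lo there. So were the sums of adventitial fibroblast markers (29.75 CPM) and myofibroblast markers (37.81 CPM).

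Fgf2, basic FGF, had the largest fold change of the members with all libraries, by less than its SE. Fgf7 was above it by limma-voom (3.38 against 3.10 on the log2 scale) and without QZ1-lo replicate 1 (3.20 against 2.84) or 2 (3.29 against 3.18), and Fgf10 was above it without QZ1-lo replicate 3 (3.20 against 2.69). It was measured at 2.12, 3.16, 3.30 and 2.68 CPM in QZ1-hi and at 0.209, 0.448, 0.0724 and 0.655 CPM in QZ1-lo. The populations were well apart, although Fgf2 was scarce, with 216 counts over all QZ1-hi libraries and 36 over all QZ1-lo libraries. Means were 2.81 ± 0.533 CPM and 0.346 ± 0.258 CPM (n = 4 each), and the log2 fold change was 3.02 (SE 0.64, edgeR adjusted p = 0.00716). The call held in all 8 fits that left out a library and in the 7 other fits in which Fgf2 was tested. Fgf2 (Entrez 14173, chromosome 3, 37348477 to 37410106, plus strand, GRCm38.p6) shares 640 of its exon bases, 9.44%, with Nudt6 on the opposite strand. The strand setting of the counting is not given in the sources used here, so reads from the shared stretch could not be assigned. Nudt6 itself had a log2 fold change of 1.63 (SE 0.45, edgeR adjusted p = 0.0275).

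Fgf1, acidic FGF (Entrez 14164, chromosome 18, 38838672 to 38929470, minus strand, GRCm38.p6), was the most abundant ligand, at 50.1, 87.1, 54.8 and 37.0 CPM in QZ1-hi and 27.9, 26.8, 39.3 and 23.1 CPM in QZ1-lo. QZ1-hi replicate 2 was well above the rest, and QZ1-hi replicate 4 lay just below QZ1-lo replicate 3. Means were 57.2 ± 21.3 CPM and 29.3 ± 6.97 CPM (n = 4 each). The log2 fold change was 0.97 (SE 0.25, edgeR adjusted p = 0.0194), or 1.96-fold. Of the called members Fgf1 had the smallest difference and was the only one whose call was lost under another scaling. With libraries scaled by total counts alone its log2 fold change was 0.48 (adjusted p = 0.234), in a fit where the median of all genes moved from 0.02 to -0.44. The call was also lost without QZ1-lo replicate 1, 2 or 4, with adjusted p from 0.0509 to 0.0568.

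Fgf18 did not pass the test, and its libraries differed within each population. It was measured at 0.551, 4.40, 4.63 and 1.07 CPM in QZ1-hi and at 1.43, 2.12, 0.832 and 0.123 CPM in QZ1-lo. QZ1-hi replicates 2 and 3 lay above all QZ1-lo libraries and QZ1-hi replicates 1 and 4 lay among them. The log2 fold change was 1.23 with an unadjusted 95% interval from -0.58 to 3.05 (edgeR adjusted p = 0.373), a range that includes no difference and differences as large as that of Fgf2.

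Among the receptors, Fgfr1 (Entrez 14182, chromosome 8, 25518759 to 25575718, plus strand, GRCm38.p6) was higher in QZ1-hi. It was measured at 36.2, 34.4, 61.3 and 27.1 CPM in QZ1-hi and at 6.08, 6.84, 9.70 and 5.65 CPM in QZ1-lo. The lowest QZ1-hi library lay well above the highest QZ1-lo library, and replicate 3 was the highest of each population. Means were 39.8 ± 14.9 CPM and 7.07 ± 1.82 CPM (n = 4 each). The log2 fold change was 2.49 (SE 0.27, edgeR adjusted p = 0.000278), or 5.62-fold. Fgfr1 ranked 74 of the 15583 genes by p. It was called in all 16 alternative fits, with a log2 fold change between 2.06 and 2.68. QZ1-hi replicate 3, the library with the most Fgfr1, also had the highest summed endothelial and pericyte markers, at 1990 and 324.1 CPM, and QZ1-lo replicate 3 had the highest of its own population, at 255.4 and 59.2 CPM. The sums of adventitial fibroblast markers (303.8 and 29.75 CPM) and myofibroblast markers (166.6 and 37.81 CPM) were highest in these libraries as well. Matrix fibroblast sums were highest in QZ1-hi replicate 2 (2588 CPM) and QZ1-lo replicate 1 (989.2 CPM), although Col1a1 and Col1a2 were highest in replicate 3 of each population. The alveolar fibroblast sum was lowest of QZ1-hi in replicate 3, at 0.636 CPM. Nes made up most of both pericyte sums, at 238.1 and 39.2 CPM. Pdgfrb and Trpc6 were also highest in replicate 3 of each population, while Des and Cspg4 were highest in other replicates. Higd1b was highest in replicate 3 in QZ1-hi but had no count in QZ1-lo replicate 3. Replicate numbers follow accession order, so the same number in both populations does not stand for the same mouse.

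Fgfr2, the receptor of Fgf7 and Fgf10 in epithelium, was the most abundant receptor in both populations. It was measured at 121.6, 102.2, 82.3 and 86.3 CPM in QZ1-hi and at 81.4, 86.3, 83.0 and 66.3 CPM in QZ1-lo. The populations overlapped, with QZ1-hi replicates 1 and 2 above all others. Means were 98.1 ± 17.9 CPM and 79.3 ± 8.86 CPM, and the log2 fold change was 0.31 with an unadjusted 95% interval from -0.02 to 0.63 (edgeR adjusted p = 0.196). With total counts alone as the scaling it was -0.13. Beside these values, the epithelial markers were lower in QZ1-hi, at -1.34 for Cdh1 (SE 0.18) and -1.17 for Epcam (SE 0.19) on the log2 scale. The alveolar type 2 markers, however, were mixed: of 5, 1 was higher (Sftpc), 2 were lower (Aqp5 and Nkx2-1) and 2 were not called (Sftpb and Muc1). Their sum was 4711 to 8776 CPM in QZ1-hi and 3673 to 5876 CPM in QZ1-lo. Sftpc and Sftpb made up most of it, at means of 4064 and 2004 CPM in QZ1-hi and 2371 and 1526 CPM in QZ1-lo. QZ1-hi replicate 1, the library with the most Fgfr2, also had the highest type 2 sum, at 8776 CPM. Within QZ1-hi it was also highest in the summed alveolar type 1 markers (441.8 CPM) and in Cdh1 with Epcam (345.6 CPM). In QZ1-lo the library with the most Fgfr2 was replicate 2, while the highest type 2 sum, 5876 CPM, was in replicate 3.

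Fgfr3 was nearly level between the populations. It ran from 21.5 to 37.1 CPM in QZ1-hi (24.3, 29.0, 37.1 and 21.5) and from 23.04 to 34.1 CPM in QZ1-lo (24.1, 27.7, 34.1 and 23.04), and the log2 fold change was 0.04 with an unadjusted 95% interval from -0.38 to 0.46 (edgeR adjusted p = 0.928). Of its exon bases, 13.9% lie on the strand opposite to exons of G630022F23Rik. Fgfrl1 was measured at 7.80, 7.21, 3.53 and 3.22 CPM in QZ1-hi and at 4.23, 4.68, 4.20 and 2.95 CPM in QZ1-lo, so that 2 QZ1-hi libraries lay above all QZ1-lo libraries and 2 among them. Its log2 fold change was 0.44 with an interval from -0.32 to 1.20 (edgeR adjusted p = 0.456). Fgfr4 was near the limit of detection, with 12, 23, 25 and 3 counts in QZ1-hi and 2, 4, 9 and 0 counts in QZ1-lo, and did not pass the filter. The library with 0 counts allows up to 3 counts, or 0.123 CPM, which covers counting error only. Without the filter its log2 fold change was 2.53 with an SE of 1.19 and an adjusted p of 0.212, so no difference passed the test.

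**Figure D2:**
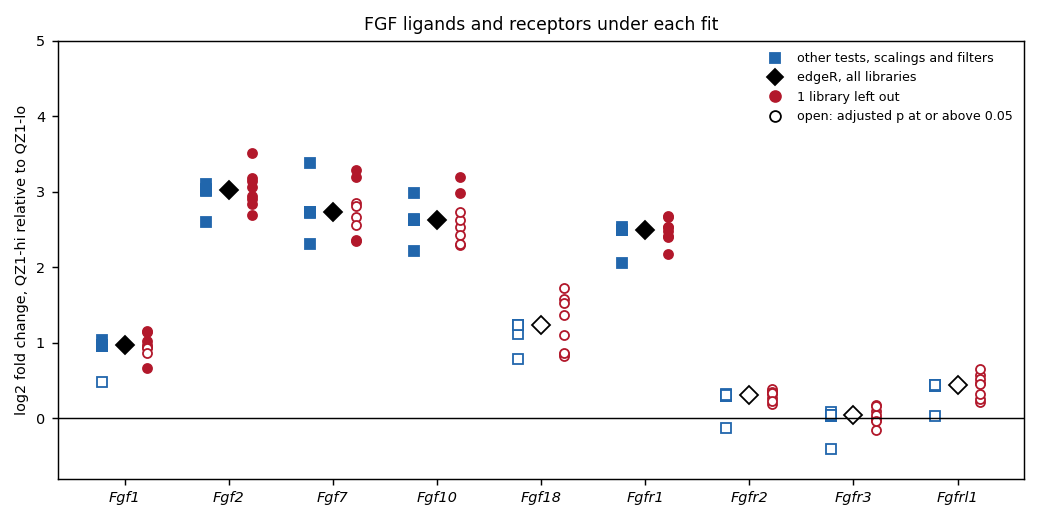
Log2 fold change of the 9 tested FGF genes in each fit, with values above 0 higher in QZ1-hi (diamond, all libraries with edgeR; squares, other tests, scalings and filters; circles, 1 library left out; open symbols, adjusted p at or above 0.05). Fgf2 and Fgfr1 are filled in every fit, while Fgf7 and Fgf10 keep their size and lose the call in several fits.

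Levels of different genes were compared as CPM per kilobase of merged exon. In QZ1-hi the order was Fgf1 at 10.5 ± 3.90, Fgfr2 at 9.50 ± 1.73, Fgfr1 at 4.03 ± 1.51, Fgfr3 at 3.91 ± 0.950, Fgf18 at 2.24 ± 1.81, Fgfrl1 at 1.96 ± 0.863, Fgf7 at 1.87 ± 0.515, Fgf10 at 0.710 ± 0.408, Fgf2 at 0.415 ± 0.0786 and Fgfr4 at 0.231 ± 0.163 CPM per kb (mean ± SD, n = 4). Neighbours in this order overlapped by 1 SD on either side, except for Fgfr2 and Fgfr1 and for Fgf7 and Fgf10. In QZ1-lo the order was Fgfr2 at 7.67 ± 0.858, Fgf1 at 5.36 ± 1.28, Fgfr3 at 3.81 ± 0.698, Fgfrl1 at 1.44 ± 0.268, Fgf18 at 0.948 ± 0.716 and Fgfr1 at 0.716 ± 0.185 CPM per kb. The other ligands and Fgfr4 lay below 0.3 CPM per kb there. Fgfr2 and Fgf1, and Fgfr3 and Fgfrl1, were more than 1 SD apart, and the other neighbours named overlapped. This order depends on the length used. With the longest transcript in place of merged exons, Fgfr2 was first in both populations, at 22.2 ± 4.03 CPM per kb in QZ1-hi and 17.9 ± 2.00 in QZ1-lo, and Fgf1 was at 14.4 ± 5.35 and 7.35 ± 1.75 CPM per kb. Fgfr1 was then at 7.89 ± 2.96 and 1.40 ± 0.362 CPM per kb, Fgfr3 at 6.59 ± 1.60 and 6.42 ± 1.18, and Fgfrl1 at 2.34 ± 1.03 and 1.72 ± 0.320. With either length Fgfr1 stood above Fgfrl1 and beside Fgfr3 in QZ1-hi and below both in QZ1-lo.

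The mix of kinase receptors within a library does not depend on how libraries are scaled. Fgfr1 made up 19.3, 19.6, 31.4 and 19.4% of the summed level per kb of Fgfr1 to Fgfr4 in QZ1-hi and 5.18, 5.34, 7.08 and 5.60% in QZ1-lo. The populations did not overlap, and 3 of the QZ1-hi libraries were close to each other while replicate 3 stood above them. Fgfr3 made up 22.1 ± 3.45% in QZ1-hi and 31.0 ± 2.56% in QZ1-lo, also without overlap, so its share was smaller in QZ1-hi although its level was not. Fgfr2 made up the largest share in all 8 libraries, 54.3 ± 9.64% and 62.9 ± 3.60%, and the populations overlapped. Fgfr4 made up 1.25 ± 0.820% and 0.290 ± 0.288%. These small shares were 0.642% and 0.147% when the longest transcript gave the length, and the QZ1-lo share was 0.165% without QZ1-lo replicate 3. The log2 ratio of Fgfr1 to Fgfr2 counts was -1.35 (SD 0.62) in QZ1-hi and -3.51 (SD 0.29) in QZ1-lo, a difference of 2.16, and ran from -1.75 to -0.43 and from -3.74 to -3.10. The ratio of Fgfr3 to Fgfr2 overlapped between populations, at -1.82 (SD 0.49) and -1.55 (SD 0.20). These shares and ratios are descriptions with no test.

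**Figure D3:**
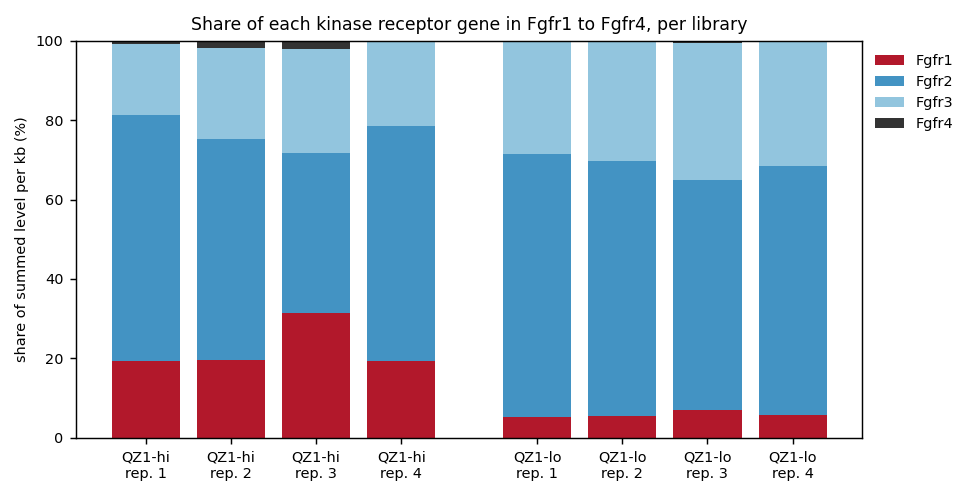
Share of Fgfr1, Fgfr2, Fgfr3 and Fgfr4 in their summed level per kb of exon, in percent, for each library. The Fgfr1 share is between 19.3 and 31.4% in the QZ1-hi libraries and between 5.18 and 7.08% in the QZ1-lo libraries, and Fgfr2 is the largest share in each.

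The other 56 genes of the pathway, listed by role, did not lean the same way as the ligands. Of the 38 that were tested, 7 were higher and 6 were lower in QZ1-hi and 25 were not called, with a median log2 fold change of 0.11. Over all 15583 genes tested, 9.88% were higher and 8.21% were lower, the shares that stand beside these counts and those of each list below. The other FGF genes were scarce. Of 17, 3 were tested and 6 had no count in any library. Fgf13, which encodes an intracellular protein that binds sodium channels and is not a secreted ligand, had 0, 0, 0 and 4 counts in QZ1-hi and 56, 40, 19 and 15 in QZ1-lo and was lower in QZ1-hi, with a fitted log2 fold change of -4.28 (SE 1.15, edgeR adjusted p = 0.0237) whose size depends on the prior count. That call was lost without QZ1-hi replicate 1, 2 or 3 and without QZ1-lo replicate 1 or 2, with adjusted p up to 0.0679. Fgf9 was between 0.463 and 1.14 CPM in QZ1-hi and between 0 and 0.326 CPM in QZ1-lo, without overlap, and did not pass the test (edgeR adjusted p = 0.0821).

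Heparan sulfate enzymes, which build and edit the chains that FGFs need to bind their receptors, were called in both directions: of 10 tested, 3 were higher, 3 were lower and 4 were not called, with a median log2 fold change of 0.13. Sulf1, an extracellular enzyme that removes sulfate groups from these chains, was at 49.1, 94.6, 71.6 and 36.9 CPM in QZ1-hi and 6.71, 12.7, 6.01 and 1.92 CPM in QZ1-lo. All QZ1-hi libraries lay above all QZ1-lo libraries, and the log2 fold change was 3.20 (SE 0.47, edgeR adjusted p = 0.000982). Its relative Sulf2 was at 82.6 ± 17.4 and 44.2 ± 19.1 CPM and missed the threshold (edgeR adjusted p = 0.056). Of the 5 sulfotransferases of the list, which add sulfate groups, 3 were lower and 2 were not called. Hs2st1 was at 35.9 ± 5.82 CPM in QZ1-hi and 70.2 ± 9.47 CPM in QZ1-lo (log2 fold change -0.97, SE 0.15, edgeR adjusted p = 0.00115). Hs6st1 (log2 fold change -0.85, SE 0.16, edgeR adjusted p = 0.00323) and Hs6st2 (-2.56, SE 0.64, adjusted p = 0.0176) were lower as well. The chain polymerases Ext1 and Ext2 were higher by smaller amounts, 0.44 (SE 0.12, edgeR adjusted p = 0.0261) and 0.65 (SE 0.15, edgeR adjusted p = 0.0112) on the log2 scale. The call of Hs6st2 was lost without QZ1-lo replicate 2 (adjusted p = 0.0533) and that of Ext1 in 5 of the 8 fits without a library (adjusted p up to 0.0778). With libraries scaled by total counts alone, neither Ext1 nor Ext2 was called. The sulfotransferases Ndst1, at 82.4 and 91.3 CPM in QZ1-hi and QZ1-lo (log2 fold change -0.15, edgeR adjusted p = 0.459), and Ndst2, at 9.92 and 8.72 CPM (0.18, adjusted p = 0.724), were not called.

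Of 9 coreceptors and modulators, 6 were tested, 2 were higher and 1 was lower. Il17rd, an inhibitor of FGF signalling at the membrane, was at 16.3, 18.8, 26.0 and 16.0 CPM in QZ1-hi and 1.04, 2.64, 5.57 and 2.05 CPM in QZ1-lo, without overlap. Its log2 fold change was 2.77 (SE 0.42, edgeR adjusted p = 0.00119). Replicate 3 was the highest library of each population for Il17rd, as it was for Fgfr1, though the shared number does not link these libraries by mouse. The transmembrane proteins Flrt2 and Flrt3, which can bind FGF receptors, went opposite ways. The log2 fold change of Flrt2 was 2.77 (SE 0.49, edgeR adjusted p = 0.00267) and that of Flrt3 was -0.98 (SE 0.20, edgeR adjusted p = 0.00549). The mean level of Flrt2 was 31.0 CPM in QZ1-hi, and QZ1-hi replicate 2 alone was at 67.4 CPM. With each library left out in turn the log2 fold change of Flrt2 stayed between 2.04 and 2.99 and was called each time. That library also had the highest sum of mesothelial markers, 208.0 CPM, where the other libraries ran from 5.44 to 55.7 CPM.

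Genes that carry the signal inside the cell were mostly level. Of 9 transducers, Plcg1, a phospholipase recruited to active receptors, was higher, at 72.0 ± 7.32 CPM against 41.8 ± 2.70 CPM (log2 fold change 0.79, SE 0.12, edgeR adjusted p = 0.000972), a call lost with libraries scaled by total counts alone, and the other 8 were not called, among them Ptpn11 at 73.3 and 72.2 CPM and Grb2 at 43.8 and 42.5 CPM. Of 11 targets and feedback genes, 10 were tested, 1 was higher, 1 was lower and 8 were not called. Of the Sprouty genes, feedback inhibitors of receptor kinases, 1 was higher, 1 was lower and the others were not called or had no counts. Spry4 was at 39.5, 26.7, 36.7 and 20.3 CPM in QZ1-hi and 5.93, 6.06, 8.25 and 4.63 CPM in QZ1-lo, without overlap. Its log2 fold change was 2.31 (SE 0.25, edgeR adjusted p = 0.000278). Spry2 was lower, at 28.2 ± 5.19 CPM against 45.8 ± 7.35 CPM (log2 fold change -0.70, SE 0.17, edgeR adjusted p = 0.0131). Dusp6 and Etv5, commonly read as targets of FGF signalling, were not called. Dusp6 was at 0.21 (SE 0.16, edgeR adjusted p = 0.467) and Etv5 at 0.33 (SE 0.21, edgeR adjusted p = 0.334) on the log2 scale.

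**Figure D4:**
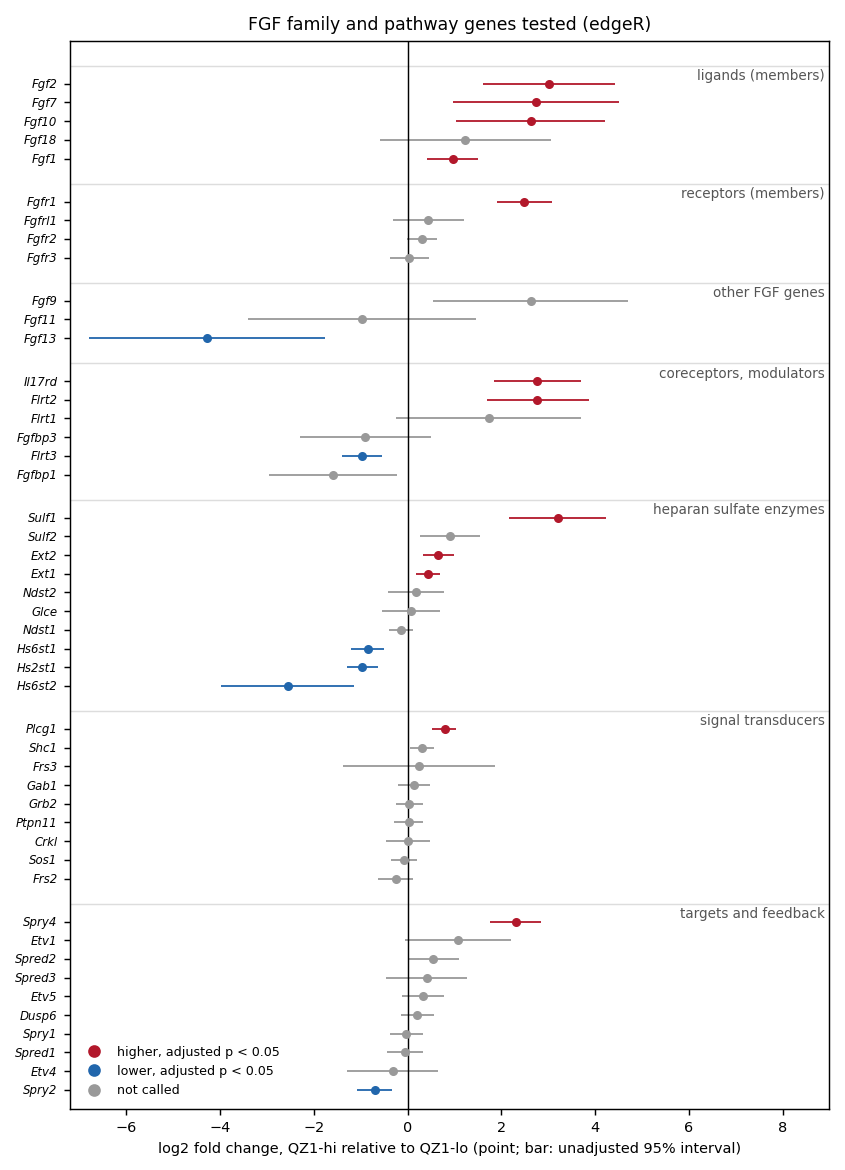
Log2 fold change of the tested FGF genes and pathway genes in QZ1-hi relative to QZ1-lo, grouped by role, with bars for the unadjusted 95% interval (red, higher; blue, lower; gray, not called). Called ligands and Fgfr1 all lie to the right of 0, while the heparan sulfate enzymes lie on both sides, from Sulf1 at 3.20 to Hs6st2 at -2.56.

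For the ligand and the receptor with the highest mean level per kb, the genes with the most similar profile were looked up by Pearson's r of log2 CPM over the 8 libraries, which fall into 2 populations and share their depth. For Fgf1 these were Commd6 (r = 0.982), Dnajc27 (r = 0.977) and Smim7 (r = 0.977). For Fgfr2 they were Kng1 (r = 0.979), Dlk1 (r = 0.967) and Rpp30 (r = 0.963). With so few libraries and 15583 genes to choose from, these values are descriptions only.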

How the data were processed

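RNA of the sorted cells was sequenced with a stranded total RNA kit. The deposited values are raw counts, which the authors obtained by feature counting with Rsubread, for 27179 Entrez Gene identifiers, of which 25275 were matched to a symbol. The submitters' processing notes name the build mm10 and DESeq2. The aligner, annotation and strand setting are not given in the sources used here.

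The group of each library was taken from its label. The design text calls the 4 libraries of each population biological replicates, and replicate numbers follow accession order. The counts were fitted with edgeR 4.0.16 in R 4.3.3: filterByExpr (minimum count 10, minimum total count 15), TMM scaling and the quasi-likelihood test over 15583 genes, with Benjamini-Hochberg adjustment and a threshold of 0.05. SEs were derived from each log2 fold change and the root of its F value, and 95% intervals are not adjusted for the number of genes. Alternatives were DESeq2 1.42.0, limma 3.58.1 voom with sample weights, other scalings and filters, robust shrinkage, removal of mitochondrial and ribosomal RNA genes and leaving out each library. Leaving out libraries for shares, ratios and single pathway genes, and levels per kb of the longest transcript, were added after seeing the data. Ratios of counts used a pseudocount of 0.5. The procedure was tested on simulated data. Exon lengths and exon overlaps are from GENCODE M21 (GRCm38.p6), and gene positions are from RefSeq. Floors of 3 counts cover counting error only, since the reads carry no molecular identifiers and can repeat a molecule.

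All 10 members are named, as are called genes of the pathway lists, up to 3 others of each list with the highest mean CPM, and any marker gene. Nudt6 and G630022F23Rik were named after their overlap with members was seen. Members and lists were chosen with earlier results of these data known.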

Additional observations from a re-analysis of the deposited data

Results flagged for a closer look

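In 8 of 96 sets of 4 libraries, 1 library stood apart from the others of its population by Dixon's test at the 95% level. Chance gives this in about 1 in 20 sets if values are normally distributed and sets are independent. The sets are not all independent, since the Fgfr1 share and the ratio of Fgfr1 to Fgfr2 rest on shared counts. The sets were the levels of the 10 members and of the called pathway genes, the receptor shares, the ratios of members and the summed markers in each population. No member's own level was among the 8.

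QZ1-hi replicate 3 stood apart in its Fgfr1 share, at 31.4% where the other QZ1-hi libraries were between 19.3 and 19.6%, and in its log2 ratio of Fgfr1 to Fgfr2 counts, at -0.43 where the others were between -1.75 and -1.57. QZ1-hi replicate 2 stood apart in Flrt2, at 67.4 CPM against 15.3 to 21.4 CPM, in the summed mesothelial markers, at 208 CPM against 29.7 to 55.7 CPM, and in the summed club cell markers, at 819.7 CPM against 273.1 to 313.1 CPM. QZ1-hi replicate 4 was the only library of its population with counts of Fgf13, at 0.238 CPM where the others were at 0, a case in which any count is flagged. QZ1-lo replicate 1 stood apart in Hs2st1, at 84.4 CPM against 65.2 to 65.9 CPM, and in the summed matrix fibroblast markers, at 989.2 CPM against 546.4 to 618.5 CPM. Fn1 made up 931.2 CPM of that sum. Col1a1 (38.9 CPM) and Col1a2 (19.1 CPM) were lower in that library than in QZ1-lo replicates 2 and 3. The cause of these differences was not tested.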

How the results depend on the processing

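No paired analysis was possible because the labels give no mouse or replicate number, so replicate numbers here only follow accession order. Whether both populations of a mouse are among the libraries is not stated, and the test treats the libraries as independent. Of the members' log2 fold changes under each alternative, 119 kept their direction and side of the threshold, 15 lost the call and 6 changed sign, all 6 in Fgfr2 and Fgfr3. The count of members higher in QZ1-hi, 5 with all libraries, was between 3 and 5 when 1 library was left out and 2 when each library had to have at least 10 counts, a filter that left 5 members to test. None was lower in any fit. With libraries scaled by total counts alone, 4 instead of 7 other pathway genes were higher, Fgfr2 was at -0.13 and Fgfr3 at -0.41 on the log2 scale, and calls over all genes were 882 higher and 2509 lower in place of 1540 and 1280. Leaving out 1 library moved Fgfr3 between -0.15 and 0.18. Shares computed with the longest transcript in place of merged exons were 69.6% for Fgfr2 in QZ1-lo and 17.8% and 24.9% for Fgfr3 in QZ1-hi and QZ1-lo. The cause of these shifts was not tested. Fgfr4, Fgf2 in QZ1-lo and most other FGF ligand genes rest on few counts.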
